A study of Arabidopsis thaliana with 8 samples.

Results

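PDF1.2, PDF1.2b and PDF2.5 are 3 plant defensin genes of Arabidopsis thaliana. Their probe sets were chosen by gene name: each of the 3 genes was matched by 1 probe set that the platform's annotation gives to that gene alone, among 22746 probe sets other than controls. The probe sets are 249052_at for PDF1.2 (AT5G44420), 257365_x_at for PDF1.2b (AT2G26020) and 247337_at for PDF2.5 (AT5G63660), and all 3 passed the filter on low signals that left 16053 probe sets for testing. The ending _x_at of the PDF1.2b probe set marks probes that can bind transcripts of other genes as well, so its values may include those of close relatives.

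The samples were roots and shoots of plants of ecotype Ws (Wassilewskija), 10 days old, with no mutation or transgene named in the labels. The plates held Murashige and Skoog medium and stood vertically. Selenate, the selenium counterpart of sulfate, was added at 40 µM for the selenate groups and left out for the controls. RNA of each organ and medium was hybridised to 2 Affymetrix arrays, 8 in all, which gave control and selenate groups of roots and of shoots. Whether replicate arrays stand for separate plants or cultures is not in the labels, so the p-values reflect array-to-array spread that may be technical.

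Plant defensins are small, secreted, cysteine-rich peptides that act in defence against fungi. PDF1.2 and its close relatives are standard marker genes for combined jasmonate and ethylene signalling, in which EIN3 and transcription factors of the ERF family turn them on after pathogen attack, while MYC factors favour another branch of the jasmonate response. PDF2.5 belongs to a second group of the family, whose members are expressed during normal growth, and it has been linked to cadmium tolerance in Arabidopsis.

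Values are MAS5 signals, a linear intensity that had been scaled to a trimmed mean of 500.04 or 500.05 on each array. Between 13224 and 14624 probe sets per array reached a signal of 100, which is 20% of the scaled mean. Of 7 listed genes of green tissue 6 were on the table, and their summed signal was 2031 to 2516 in control roots, 1211 to 1367 in selenate roots and 114678 to 126304 in shoots, which follows the titles. Of 5 listed genes of roots and root hairs 3 were on the table, with a summed signal of 17806 to 19595 in roots and 5713 to 9477 in shoots. The GAPDH ratio (signal at the 3' end over that at the 5' end of this control transcript, a measure of RNA integrity) was 0.783 to 0.868 in roots, 2.03 in control shoots 1, 10.4 in control shoots 2, 7.34 in selenate shoots 1 and 2.95 in selenate shoots 2. Control shoots 2 and selenate shoots 1 stood apart by this ratio, and results in shoots are also given without them. The same ratio for ubiquitin did not set them apart: it was 4.38 and 4.88 in control shoots and 5.24 and 6.11 in selenate shoots, highest on selenate shoots 2, and 2.12 to 2.75 in roots.

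In shoots, the transcripts read by the PDF1.2b and PDF1.2 probe sets were lower on selenate, and PDF2.5 did not pass the test. Of the 3 genes 2 fell, where 0.797% of all tested probe sets were called as lower and 1.86% in either direction (limma, adjusted p under 0.05). PDF1.2b entered the test only through control shoots, where it is high, so this count is not independent of the filter. The call of PDF1.2 ended under 12 of 18 alternatives. Since the PDF1.2b probe set can bind transcripts of relatives, the 2 calls may not be independent of each other. The 2 selenate arrays lay apart from the 2 controls for the same 2 genes, as they did for 36.1% of all tested probe sets. In roots none of the 3 passed. PDF1.2 and PDF1.2b were highest in shoots and PDF2.5 in roots, so each gene had an organ in which its signals were low. PDF1.2b was low in selenate shoots as well. In RNA from whole organs, fewer cells with a transcript and less transcript per cell cannot be told apart.

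PDF1.2 encodes the defensin most often used as a readout of jasmonate and ethylene signalling. Its signals were 724.5 and 306.2 on the 2 control shoot arrays and 137.7 and 101.4 on the 2 selenate shoot arrays. In roots they were 49.0 and 54.4 on the control arrays and 52.1 and 41.0 on the selenate arrays. All 4 shoot signals were above all 4 root signals, and both control shoots were above both selenate shoots, although the 2 control shoots differed from each other by 2.37-fold.

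**Figure D1:**
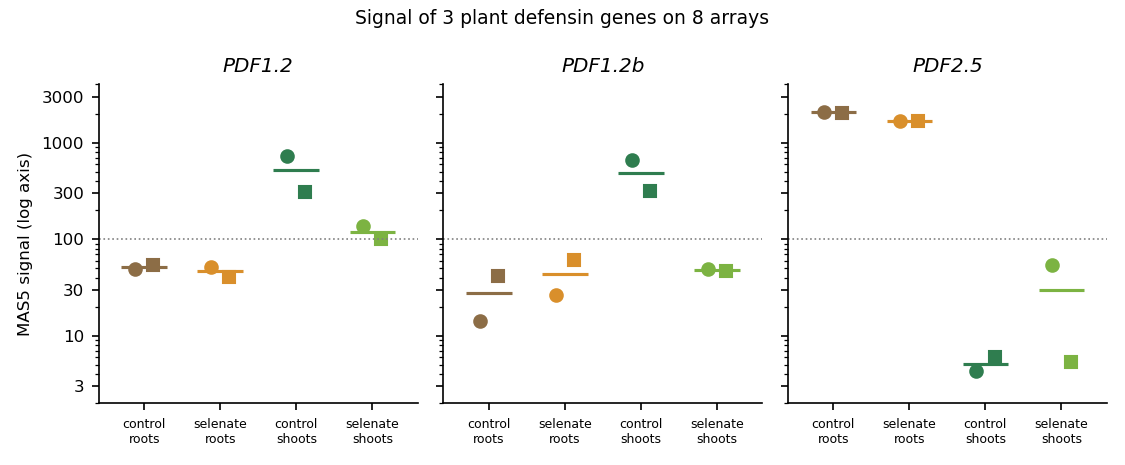
MAS5 signal (log axis) of PDF1.2, PDF1.2b and PDF2.5 on each of the 8 arrays, in 4 groups of 2; circles are replicate 1, squares replicate 2, bars the group mean, and the dotted line a signal of 100. PDF1.2 and PDF1.2b were highest in control shoots, at 306.2 to 724.5 and 313.9 to 658.5, and PDF2.5 was highest in roots, at 1665.4 to 2100.0.

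The mean signal of PDF1.2 in shoots went from 515 ± 296 (SD, n = 2) without selenate to 120 ± 25.7 with it. On the scale of log2(signal + 25) this was a change of -1.80 ± 0.35 (SE), a 3.47-fold fall, with a 95% interval from -2.59 to -1.01 and a limma adjusted p of 0.0396. It ranked 13th from the lowest among the shoot changes of the 16053 tested probe sets, and 37th with a pseudocount at 1% of the scaled mean. The call lay close to the threshold and ended under 12 of 18 alternatives. Among these were quantile normalization (log2 change -1.67, limma adjusted p = 0.0536), a fit of the shoot arrays alone (-1.80, 0.271) and a fit without shoot control 1 (-1.21). The 18 include a crossed replicate pairing in shoots, chosen after seeing the data, under which the call held. With shoot control 2 left out the log2 change was -2.39, and with both high-ratio shoot arrays left out it was -2.57, with limma adjusted p-values of 0.00650 and 0.00796.

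PDF1.2b, the closest relative of PDF1.2 among the 3 genes, had signals of 658.5 and 313.9 in control shoots and 49.4 and 46.9 in selenate shoots. In roots the signals were 14.2 and 41.8 on the control arrays and 26.3 and 61.1 on the selenate arrays. The selenate shoots thus lay inside the range of the root arrays, while both control shoots lay above every other array. PDF1.2b reached a signal of 100 on the control shoots alone, so it entered the test through the group in which it is high; without the filter its limma adjusted p in shoots was 0.0272.

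The mean signal of PDF1.2b in shoots went from 486 ± 244 (SD, n = 2) to 48.2 ± 1.77. The log2 change was -2.72 ± 0.40 (SE), a 6.58-fold fall, with a 95% interval from -3.63 to -1.81 and a limma adjusted p of 0.0143. It ranked 2nd from the lowest among the changes of all 16053 tested probe sets in shoots. The call held under 15 of 18 alternatives, among them a crossed replicate pairing in shoots that was chosen after seeing the data. It ended without shoot selenate 1, without shoot selenate 2 and with the shoot arrays alone in the fit (limma adjusted p = 0.132). Because both selenate signals were under 100, the size of the fall depends on the pseudocount: it was -1.92 (log2) with a pseudocount at 20% of the scaled mean and -3.11 with one of 1%. Without both shoot arrays with high GAPDH ratios it was -3.25 (limma adjusted p = 0.0173).

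PDF2.5 had low signals in shoots, 4.3 and 6.0 on the control arrays and 53.9 and 5.3 on the selenate arrays. One array, selenate shoots 1, stood apart, and the other selenate array lay between the 2 controls. The log2 change was 0.70 ± 0.36 (SE), with a 95% interval from -0.12 to 1.52 and a limma adjusted p of 0.429, and it rested on that array: it was 0.0077 without selenate shoots 1 and 1.39 without selenate shoots 2, which alone gave a call (limma adjusted p = 0.0355). Without both shoot arrays with high GAPDH ratios, of which selenate shoots 1 is one, it was 0.05. With a pseudocount at 1% of the scaled mean it was 1.28 (limma adjusted p = 0.418). Whether root tissue added to the PDF2.5 signal on selenate shoots 1 was not tested. The summed signal of the root genes on that array was 6795, against 9477 on control shoots 2, where PDF2.5 was 6.0. Nearly all of both sums came from PYK10, at 6757.9 and 9465. EXPA7 was 32 on selenate shoots 1 and 8.3 on control shoots 2, and EXPA18 was 4.6 and 3.3. On control shoots 1 EXPA7 was 16.4 and EXPA18 was 59.6. On selenate shoots 2, where PDF2.5 was 5.3, EXPA7 was 38.7 and EXPA18 was 28.8, both above their signals on selenate shoots 1. All 4 shoot signals of PDF2.5 were under 100, and detection calls were not used here, so whether they stood above background is not known.

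**Figure D2:**
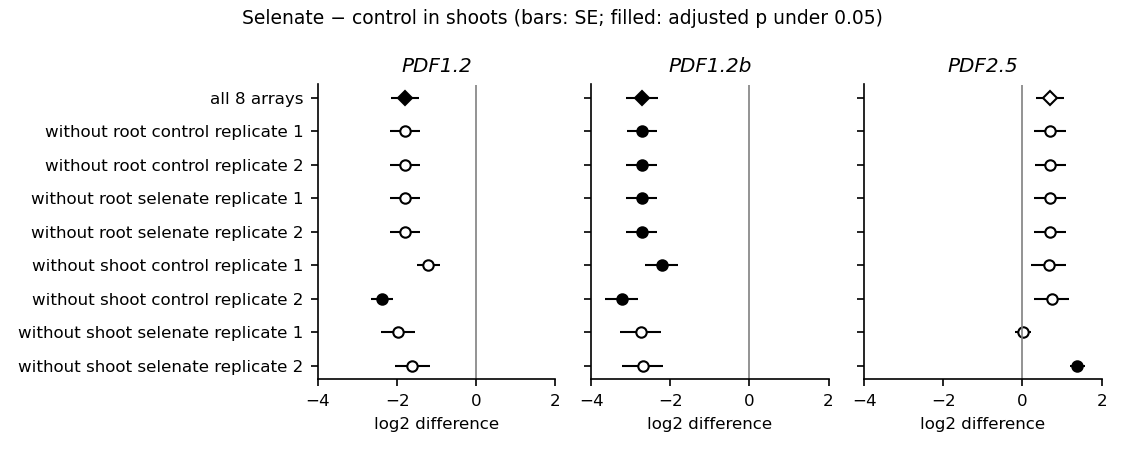
Log2 change of each gene in shoots, selenate minus control, in the fit of all 8 arrays (diamond) and in fits that leave out 1 array (circles); bars are the SE and filled symbols have a limma adjusted p under 0.05. PDF1.2 and PDF1.2b stay below 0 throughout, from -2.39 to -1.21 and from -3.22 to -2.21, and PDF2.5 ranges from 0.0077 to 1.39.

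In roots, none of the 3 genes passed the test on selenate by limma, and 0 of 3 had an unadjusted p under 0.05; 5.71% of all tested probe sets were called in this comparison. The log2 change of PDF1.2 was -0.10, with a 95% interval from -0.90 to 0.69, and the ranges of control and selenate roots overlapped. That of PDF1.2b was 0.38, with an interval from -0.53 to 1.29, and its ranges overlapped too. Changes of up to the bounds of these intervals could not be resolved, and every root signal of both genes was under 100. The spread behind the intervals is shared with the shoot arrays. PDF1.2 differed between replicates by 0.10 and 0.22 (log2) in roots and by 1.18 in control shoots, and PDF1.2b by 0.77 and 0.75 in roots and 1.01 in control shoots. Both log2 changes hung on single arrays, since PDF1.2 had one of 0.0084 without selenate roots 2 and PDF1.2b one of -0.0074 without control roots 1.

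PDF2.5 was abundant in roots, so its root values are the best measured of the 3 genes. Its signals were 2100.0 and 2045.5 in control roots and 1666.1 and 1665.4 in selenate roots, with means of 2073 ± 38.5 and 1666 ± 0.495 (SD, n = 2). Both selenate arrays were below both controls, as the groups were apart for 53.5% of all tested probe sets in this comparison. The log2 difference was -0.31 ± 0.36 (SE), with a 95% interval from -1.13 to 0.51 and a limma adjusted p of 0.845. The SE is wide beside the root replicates because the spread is shared with the shoot arrays, on which this gene varied most. A fit of the root arrays alone gave a limma adjusted p of 0.0614.

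The difference between the shoot and root responses passed the test for PDF1.2b and for neither of the others. That is 1 of 3, where 3.70% of all tested probe sets were called and 2.28% were called as lower in shoots. PDF1.2b passed the filter only through control shoots, the group in which it is high. For PDF1.2b the response in shoots minus that in roots was -3.10 ± 0.57 (SE) on the log2 scale (limma adjusted p = 0.0179). It was -2.08 with a pseudocount at 20% of the scaled mean and -3.72 with one of 1%, and with the replicate number as a block its limma adjusted p was 0.0507. The call also ended without control roots 1 (limma adjusted p = 0.0929), selenate roots 2 (0.105), selenate shoots 1 (0.0563) or selenate shoots 2 (0.0562). For PDF1.2 the difference was -1.69, with a 95% interval from -2.81 to -0.57 (limma adjusted p = 0.120). It passed if shoot control 2 was left out (-2.28, limma adjusted p = 0.00635), and also with both high-ratio shoot arrays left out (-2.46, 0.00573). For PDF2.5 it was 1.01, with an interval from -0.15 to 2.17 (limma adjusted p = 0.398), and 1.70 without selenate shoots 2 (0.0134).

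**Figure D3:**
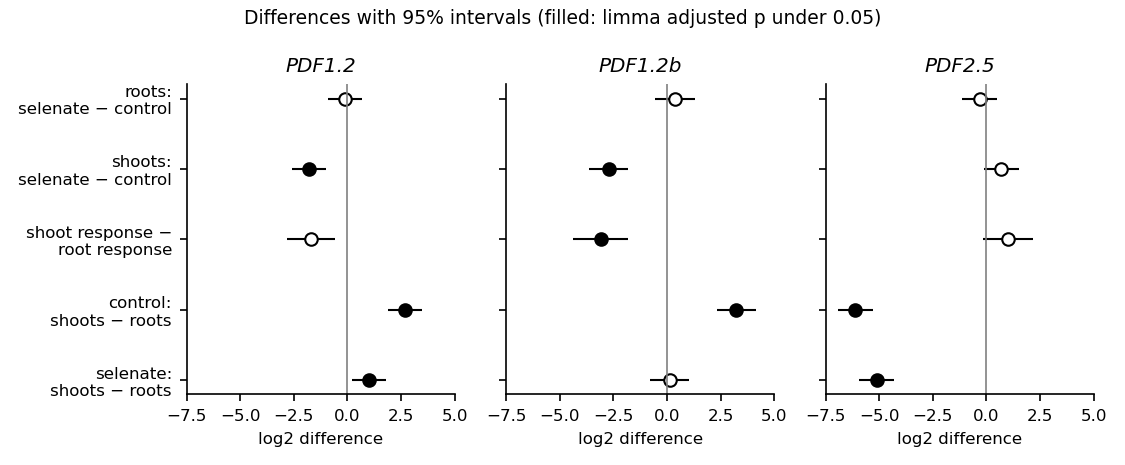
Log2 differences of the 3 genes in 5 comparisons, with 95% intervals from limma; filled points have an adjusted p under 0.05. In shoots PDF1.2 and PDF1.2b lie at -1.80 and -2.72, and the shoot minus root difference of PDF1.2b is 3.23 on control medium and 0.14 on selenate.

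Between organs on control medium all 3 genes were called, where 63.2% of all tested probe sets were. Each gene passed the filter only through the organ in which it is high, PDF1.2 and PDF1.2b through shoots and PDF2.5 through roots. The count of calls is therefore not independent of the filter. PDF1.2 was 6.50-fold higher in shoots (log2 difference 2.70 ± 0.35 SE, limma adjusted p = 0.000119) and PDF1.2b 9.41-fold higher (3.23 ± 0.40, 9.12e-05). PDF2.5 went the other way, at a mean shoot signal of 5.15 ± 1.2 (SD, n = 2) and a log2 difference of -6.12 ± 0.36 (SE), which placed it 31st from the lowest among 16053. The median difference over all tested probe sets was -0.21, and after centring each array on its median 0.04, so these differences exceed what the scaling moves. Their size depends on the pseudocount, since each gene was under 100 in one organ: from 1% to 20% of the scaled mean the log2 difference went from 3.94 to 2.14 for PDF1.2b and from -7.68 to -4.37 for PDF2.5, and for PDF1.2 it was 1.93 at 20%. For PDF1.2 it was also 2.11 without shoot control 1, and 3.29 if shoot control 2, or both high-ratio shoot arrays, were left out. RNA integrity and organ cannot be told apart here, since every shoot array had a higher GAPDH ratio than any root array.

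On selenate, 2 of the 3 genes were called between organs, against 65.1% of all tested probe sets. Both, PDF1.2 and PDF2.5, passed the filter only through the organ in which each is high. PDF1.2 was 2.01-fold higher in shoots (log2 difference 1.01 ± 0.35 SE, limma adjusted p = 0.0299), a call that ended without either root selenate array, without selenate shoots 1 and with a pseudocount at 20% of the scaled mean. For PDF1.2b the log2 difference was 0.14, with a 95% interval from -0.77 to 1.05 (limma adjusted p = 0.778), and the ranges of selenate shoots and selenate roots overlapped. It was -0.24 without selenate roots 1. PDF2.5 was lower in shoots, with a log2 difference of -5.11 ± 0.36 (SE), a value that ran from -6.08 to -3.79 with pseudocounts of 1% and 20% and was -5.80 without selenate shoots 1 and -4.42 without selenate shoots 2. The order of the levels was therefore control shoots, selenate shoots and then both root groups for PDF1.2. For PDF1.2b only control shoots stood above the rest, and selenate shoots and both root groups did not separate beyond their spread. For PDF2.5 control and selenate roots led, apart from each other on the arrays but not by the test, and both shoot groups came last without separating.

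The spread between replicates was uneven. PDF1.2 and PDF1.2b differed between the 2 control shoot arrays by 1.18 and 1.01 on the log2 scale, where the median over tested probe sets was 0.33, and these differences were at least as large as those of 97.2% and 95% of tested probe sets. In both genes control shoots 1 was the higher array. In control roots PDF1.2b differed by 0.77 between arrays (median over tested probe sets 0.14), and in selenate shoots PDF2.5 differed by 1.38 (median 0.24), more than or equal to 99.4% of tested probe sets. PDF2.5 in selenate roots differed by 0.00060.

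The patterns of PDF1.2 and PDF1.2b over the 8 arrays were close. After each gene was centred on its own mean, the root mean square difference between them was 0.49 on the log2 scale, and that of PDF2.5 was 3.86 to PDF1.2 and 3.89 to PDF1.2b. PDF1.2 was the 2nd nearest of all tested probe sets to PDF1.2b, and PDF1.2b the 4th nearest to PDF1.2. Since the PDF1.2b probe set can bind transcripts of relatives, how much of this likeness comes from shared transcripts was not tested. In the order of genes in the RefSeq annotation of assembly TAIR10.1, PDF1.2 stands next to PDF1.2c and PDF1.2b next to PDF1.3, and PDF1.2c and PDF1.3 were not analysed here.

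The named genes nearest to PDF1.2 in pattern, apart from PDF1.2b, were MSRB6, BCAT4, AGL24 and SFP2, at root mean square differences of 0.36, 0.49, 0.52 and 0.52, against a median of 1.34 over the 1225 other named probe sets. The nearest genes of every member were picked by likeness over these same 8 arrays. Changes in the same direction as the member are thus largely built into the choice and lend no support. MSRB6, a methionine sulfoxide reductase gene, had signals of 1692 and 1396.8 in control shoots and 719.4 and 681.6 in selenate shoots, and fell 2.15-fold in shoots (limma adjusted p = 0.0134), a call that ended without selenate shoots 1 (0.0747) or 2 (0.0752). BCAT4, which starts methionine chain elongation for glucosinolates, fell in both organs, by 1.05 in roots and 1.46 in shoots on the log2 scale (limma adjusted p = 0.00465 and 0.00542), and its root call ended without control roots 1 (0.0795) or selenate roots 2 (0.0783). AGL24, a MADS-box factor gene, and SFP2, a sugar transporter gene, had log2 changes of -0.82 and -0.83 in shoots and did not pass (limma adjusted p = 0.218 and 0.0691).

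Nearest to PDF1.2b after PDF1.2 and MSRB6 were ARR15, RH39 and BCAT4, at 0.75, 0.79 and 0.80, against a median of 1.49. ARR15, a response regulator of cytokinin signalling, had signals of 266.0 and 219.3 in control shoots and 60.1 and 50.9 in selenate shoots, so that its selenate shoots, like those of PDF1.2b, came down to the level of the roots or below it. ARR15 reached 100 on the control shoots alone, and so entered the test through the group in which it is high. RH39, an RNA helicase gene, had a log2 change of -0.62 in shoots (limma adjusted p = 0.377). Nearest to PDF2.5 were GSTU25, SBT4.12, LTI30, HRGP1 and OSM34, at 0.46 to 0.59 against a median of 2.77. All 5 had signals of at least 2000 on every root array and at most 142.8 on every shoot array, and the probe set of HRGP1 also ends in _x_at. On selenate the 5 parted: HRGP1 fell in roots by 1.08 (log2, limma adjusted p = 0.0153), and OSM34, the osmotin gene, rose in shoots by 1.28 (0.0148). The call of HRGP1 ended without control roots 1 (0.0981), control roots 2 (0.165) or selenate roots 1 (0.177), and that of OSM34 without control roots 1 (just above the threshold), either selenate root array (0.0530 and 0.0524) or either selenate shoot array (0.0803 and 0.0792).

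**Figure D4:**
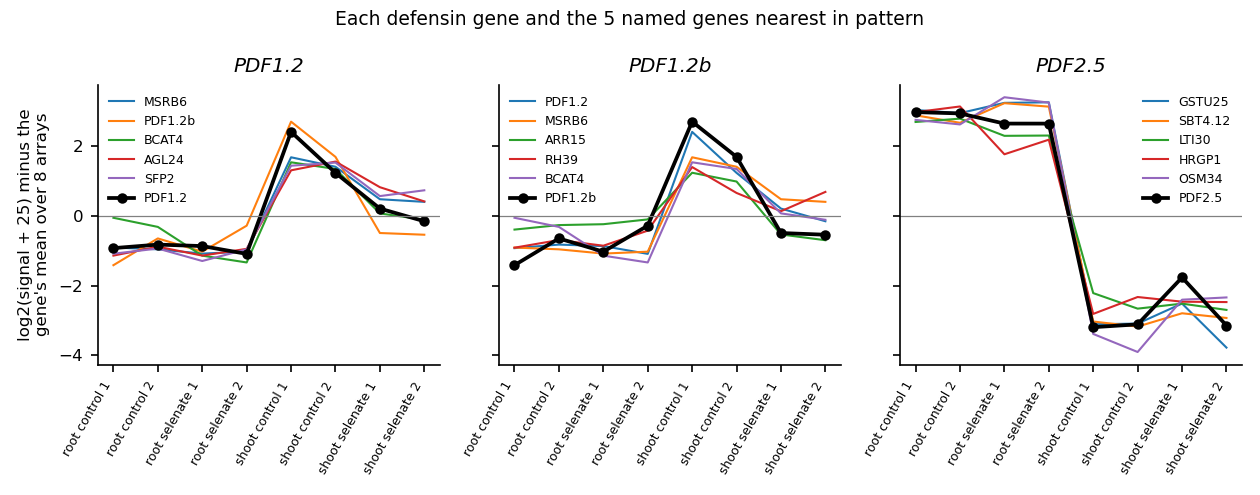
Log2(signal + 25) minus each gene's mean, on the 8 arrays, for each defensin gene (black) and the 5 named genes nearest to it by root mean square difference; lines only join the arrays of a gene. PDF1.2 and PDF1.2b peak in control shoots with MSRB6 and BCAT4 beside them, and PDF2.5 drops from roots to shoots with its 5 neighbours.

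No other tested member of the defensin family passed the test in shoots. Of 12 other listed defensin genes 9 were on the table and 4 were tested, and the other 5 did not pass the filter on low signals. In shoots on selenate 0 of the 4 were called by limma, where 1.86% of all tested probe sets were, so a count of 0 tells little. The unadjusted p was under 0.05 for 0 of 4, and the median log2 change was -0.24, against -0.02 over all tested probe sets. LCR67 and PDF2.1 were under 100 on every shoot array, so a fall of theirs could hardly be seen. In roots 2 of the 4 rose, where 3.35% of all tested probe sets did, and the median was 1.00 against -0.02; LCR67, one of them, passed the filter only through the group in which it is high. In the same comparison, in roots, 2.37% of all tested probe sets were called as lower. So were 3 of the 6 genes of green tissue, among them LHCB4.2 (3.52-fold, limma adjusted p = 0.000106), and 1 of the 3 root genes, EXPA7 (2.23-fold, 0.0138). The part of these tissue genes in the rise of the defensins was not tested.

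LCR67, whose synonym is PDF1.1, belongs to the same group as PDF1.2. It had signals of 2.9 and 22.3 in control roots and 178.3 and 131.7 in selenate roots, a log2 rise of 2.30 ± 0.39 (SE) with a limma adjusted p of 0.00711. In shoots it was low on every array, at 2.3 to 44.8, with a log2 change of -0.70 (limma adjusted p = 0.466). Its rise in roots was 1.18 with a pseudocount at 20% of the scaled mean and 3.43 with one of 1% (limma adjusted p = 0.0515), and the call ended without control roots 1 or either selenate root array (0.0529 to 0.0918).

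PDF2.1, of the same group as PDF2.5, was a root transcript as well. Its signals were 744.3 and 711.8 in control roots and 2627.8 and 2202.2 in selenate roots, a log2 rise of 1.69 ± 0.26 (SE) with a limma adjusted p of 0.00407, while PDF2.5 in the same RNA had a log2 change of -0.31. In shoots PDF2.1 lay between 3.8 and 24.0. The call ended without control roots 2 (limma adjusted p = 0.0520), without selenate roots 1 (0.0666) and with a pseudocount at 1% of the scaled mean (0.107).

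LCR69 and LCR68, with the synonyms PDF2.2 and PDF2.3, were abundant in roots, at 9511.2 to 13178.4 and 8570.5 to 9530.8, and lower in shoots, at 1657.0 to 3033.3 and 919.9 to 2739.2. Neither passed in the selenate comparisons, with log2 changes of 0.30 and 0.09 in roots and 0.17 and -0.24 in shoots. Both were lower in control shoots than in control roots, by 2.20 and 2.45 on the log2 scale (limma adjusted p = 6.22e-05 and 0.00111). With PDF2.1 this made 3 of 4 other defensins lower in control shoots, where 37.5% of all tested probe sets were. PDF2.1 passed the filter only through roots, where it is high.

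**Figure D5:**
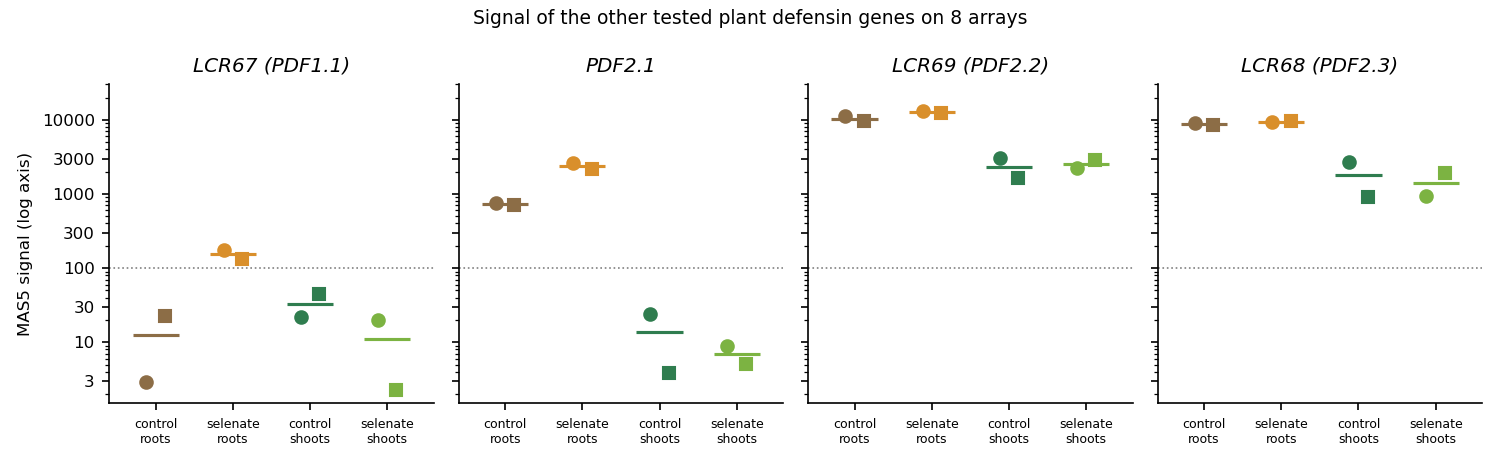
MAS5 signal (log axis) of the 4 other tested defensin genes on the 8 arrays; circles are replicate 1, squares replicate 2, bars the group mean, and the dotted line a signal of 100. LCR67 and PDF2.1 are higher in selenate roots, at 131.7 to 178.3 and 2202.2 to 2627.8, than in control roots, and LCR69 and LCR68 are high in all root arrays.

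Of 63 genes in 5 lists for jasmonate, ethylene and salicylate, 8 were on the table and 7 were tested. In roots 3 rose and 1 fell, against 3.35% and 2.37% of all tested probe sets. In shoots 0 rose and 1 fell, against 1.07% and 0.797%. In both organs the gene that fell was AT5G44400, whose standing as a marker of these hormones was not checked. ORA47, one of the 3 that rose, reached 100 in selenate roots alone and so passed the filter through the group in which it is high. The medians were 0.06 in roots and -0.15 in shoots, against -0.02 over all tested probe sets in both.

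EIN3, MYC3 and MYC4, the tested genes of the lists for jasmonate perception and ethylene, gave no call on selenate. EIN3, the transcription factor of ethylene signalling, had signals of 1047.1 to 1190.8 on all 4 shoot arrays and a log2 change of 0.14 in shoots, with a 95% interval from -0.19 to 0.46 (limma adjusted p = 0.751). MYC3 and MYC4, factors of the other jasmonate branch, had log2 changes of -0.31 and 0.03 in shoots (limma adjusted p = 0.500 and 0.985). The ERF factors of the list and the MYC2 gene were not analysed here.

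Of 14 listed genes of jasmonate synthesis 2 were on the table, and both rose in roots, where 3.35% of all tested probe sets did. Of these 2, ORA47 passed the filter only through selenate roots, the group in which it is high. OPCL1, a ligase of jasmonate synthesis, and ORA47, an activator of that pathway, had log2 rises of 2.86 and 5.09 (limma adjusted p = 2.00e-05 and 8.81e-06) and had changes of -0.15 and -0.20 in shoots. GRX480, a glutaredoxin gene of salicylate signalling that can suppress PDF1.2 induction when overexpressed, rose in roots by 3.75 and had a change of 0.02 in shoots, with signals of 56.4 to 64.6 on the shoot arrays. AT5G44400 was on the list of other marker genes and has only its locus code as a name here. Its standing as a marker was not checked. In roots it fell from 448.4 and 418.2 to 112.0 and 128.8 (log2 change -1.66, limma adjusted p = 0.000381). In shoots it fell from 637.6 and 548.8 to 212.8 and 206.3 (-1.39, 0.00708). The shoot call ended without selenate shoots 1 and with the shoot arrays alone (limma adjusted p = 0.132). THI2.1, a thionin gene that responds to jasmonate, did not pass the filter, with signals of 4.0 to 41.7.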

How the data were processed

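The 8 arrays were grouped by title; the descriptions of the shoot samples speak of roots too. The deposited values are array signals, a linear intensity which the authors computed by MAS5 (per the submitters' processing notes); the sources used here give no version. MAS5 subtracts mismatch signals within each array, which makes weak signals imprecise.

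From 22810 probe sets, 64 controls were left out. After adding a pseudocount of 25 (5% of the scaled mean), log2 values were taken, so folds of weak genes are understated. Probe sets that reached 100 on at least 2 arrays were tested (limma 3.58.1, R 4.3.3) with a mean for each group, a trend of the variance, 4 residual and 5.12 prior degrees of freedom, and Benjamini-Hochberg adjustment over all 16053. The 4 groups shared 1 spread. The number of arrays limits the precision. The procedure was tested on simulated data.

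Gene names came from the platform's annotation, updated through RefSeq (TAIR10.1) for 13436 of 13513 single-gene probe sets; no coordinates are printed, since the probe sets' build is not stated. A gene with several probe sets was represented by the one with the highest mean signal. The members, lists and tests were chosen with earlier results of these data known. Named were the 3 members, genes of the lists called in either selenate comparison, and for each member the 5 named genes nearest in pattern; EIN3, MYC3, MYC4, THI2.1, LCR68 and LCR69 were added after their values were seen. Other settings tried were the pseudocount, the filter, the normalization, the variance trend, the replicate block, fits within an organ and arrays left out.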

Additional observations from a re-analysis of the deposited data

Results flagged for a closer look

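The response to selenate differed between organs for 1 of the 3 defensin genes by a test of the difference itself (limma, adjusted p under 0.05): the response in shoots minus that in roots was -3.10 (log2) for PDF1.2b. Over all tested probe sets 3.70% were called for this difference. Among the other genes named, the same difference passed for LCR67 (-2.999), PDF2.1 (-1.92), OPCL1 (-3.01), ORA47 (-5.29), GRX480 (-3.73) and ARR15 (-1.89). ARR15 was named for its likeness to PDF1.2b, and the others because they were called on selenate in roots. Passing is thus partly built into the choice of these genes and lends no support. With the replicate number as a block, or with control roots 1, selenate roots 2 or either selenate shoot array left out, the call of PDF1.2b ended. LCR67, ORA47 and ARR15, like PDF1.2b, reached a signal of 100 only in the group in which each is high, so their passing lends no support. The calls of LCR67, PDF2.1 and ARR15 ended under 5 of 16, 6 of 17 and 2 of 16 alternatives; for ARR15 these were without control roots 1 (limma adjusted p = 0.0649) and without selenate roots 2 (0.0641).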

How the results depend on the processing

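Over 3 genes and 5 comparisons, 12 of 15 log2 differences kept their direction under every alternative run, and 5 kept both direction and call. For PDF1.2 in shoots the call ended with the smaller pseudocount, 1% of the scaled mean (-1.95), no filter (-1.80, limma adjusted p = 0.0724), quantile normalization (-1.67), the replicate block (-1.80, 0.0579) and only the shoot arrays (-1.80). Only the shoot arrays also ended that of PDF1.2b (-2.72), and called 0 probe sets in all, with 1318 at an unadjusted p under 0.05, against 299 and 2331 with all arrays; the cause was not tested. With 20% of the scaled mean as pseudocount PDF1.2 was no longer called between organs on selenate (0.58, limma adjusted p = 0.0843). Without both shoot arrays with high GAPDH ratios the difference of the responses of PDF1.2 was called (-2.46), and limma called 2047 probe sets in roots, 745 in shoots and 1358 for the difference, against 917, 299 and 594. Only the root arrays gave 2145, and the stricter filter, which PDF1.2 and PDF1.2b did not pass, 377 for the difference. Median centring gave 52.4% of calls between control organs as higher in shoots, against 40.7%.

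The labels do not say that replicate numbers pair the samples. Replicate differences correlated at r = 0.339 between control and selenate roots and -0.485 between control and selenate shoots. The replicate block gave 123 calls in shoots and ended the call of PDF1.2b for the difference of the responses (-3.10); the crossed pairing in shoots, chosen after seeing the data, gave 1486 calls.

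With each array left out in turn, the log2 changes in roots ran from -0.22 to 0.0084 for PDF1.2 and from -0.0074 to 0.76 for PDF1.2b. In shoots they ran from -2.39 to -1.21 for PDF1.2, -3.22 to -2.21 for PDF1.2b and 0.0077 to 1.39 for PDF2.5. The difference of the responses ran from -2.28 to -1.10, -3.60 to -2.59 and 0.32 to 1.70 for the same genes, and that between organs on selenate from 0.83 to 1.19 for PDF1.2 and -0.24 to 0.51 for PDF1.2b. The counts of calls ran from 398 to 1351 in roots, 51 to 631 in shoots and 233 to 1017 for the difference. Signals under 100 limit PDF1.2 in roots, PDF1.2b in roots and in selenate shoots, and PDF2.5 in shoots.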
